A study of Mus musculus with 6 samples.

Results

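The interferon-induced transmembrane (IFITM) genes were followed in bone marrow cells of C57BL/6 mice that had been sorted for high activity of aldehyde dehydrogenases, enzymes that oxidise aldehydes, a sort that enriches marrow progenitor cells. The 5 members, Ifitm1, Ifitm2, Ifitm3, Ifitm6 and Ifitm10, were taken by symbol from a table of 21606 genes, and 4 of them had enough counts to enter a test across genes. RNA was counted in 3 libraries from female and 3 from male mice, all with the genotype label WT and no treatment named, and the labels give neither an age nor whether each replicate was a separate animal, so that errors and p-values measure only how these samples vary, possibly for technical reasons. The members were chosen by family name and by measured values, their levels and their male minus female differences in these 6 libraries, so both are given as a description, and nothing is inferred from a member's call in the fit over all genes.

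IFITM proteins are small membrane proteins of the cell surface and of endosomes that hinder the fusion of viruses with the cell. Most were found as genes switched on by interferon, the antiviral signal that acts through JAK kinases and STAT and IRF transcription factors on an interferon-stimulated response element in target promoters. Stem and progenitor cells are known to express several of them without added interferon. Ifitm3 is the best studied antiviral member, Ifitm1 and Ifitm2 are its close relatives, Ifitm6 has been described in myeloid cells, and Ifitm10 is the least characterised of the 5.

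Total counts ran from 679724 to 1475224 per library. Levels are CPM, the counts of a gene per 1000000 counts of the tested genes, with library totals scaled by the TMM method. The sorted cells carried transcripts of immature myeloid cells, with 7 of 7 listed markers tested and a summed level of 13171.5 to 15424.5 CPM over the 6 libraries, led by Mpo and Prtn3, proteins of primary granules. Xist, the RNA of the inactive X chromosome, had 225 to 297 counts in female libraries and 0 to 2 in male ones, as the sex labels have it. The log2 CPM of male replicate 1 had a mean correlation of 0.963 with the females and of 0.953 with the remaining males.

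Of the 5 members 4 lie together on mouse chromosome 7 (GRCm38, GENCODE M21 coordinates): Ifitm2 at 140954837 to 140955987, Ifitm1 at 140967221 to 140969825, Ifitm3 at 141009586 to 141010770 and Ifitm6 at 141015699 to 141017924. With Ifitm5, a relative best known from bone-forming cells, they form a cluster of 5 genes in 68.967 kb. Ifitm1 is on the plus strand and the other 4 are on the minus strand. Ifitm10 lies 1308 kb further along the same chromosome, at 142325837 to 142373753 on the minus strand.

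**Figure D1:**
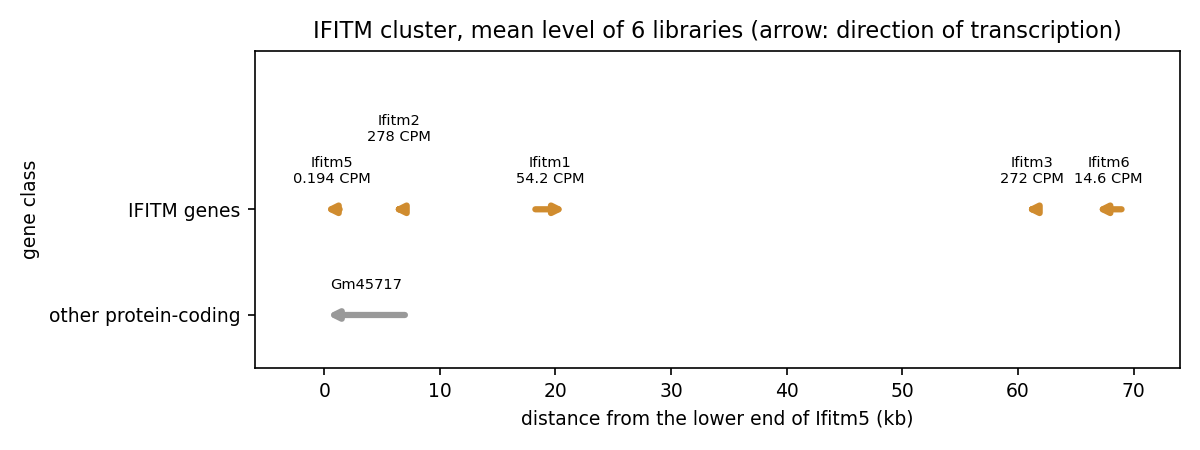
Map of the IFITM cluster on chromosome 7, with distance from the lower end of Ifitm5 in kb on the horizontal axis and gene class on the vertical axis. Arrows give the extent and direction of each protein-coding gene and labels the mean level over 6 libraries; the 2 abundant genes, Ifitm2 (278 CPM) and Ifitm3 (272 CPM), sit on either side of Ifitm1 (54.2 CPM).

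The promoters of the 2 abundant members and of Ifitm1 are shown because they differ in matches to the response element of interferon signalling. Each runs from 250 bases before to 30 bases after the transcript start in RefSeq on GRCm38.p6, read 5′ to 3′ on the gene's own strand, and capitals mark every match to a short form of the interferon-stimulated response element, the letters GAAA, any 2 bases and GAAA again. They are Ifitm3 at chr7:141010715-141010994 (minus strand), Ifitm2 at chr7:140955932-140956211 (minus strand) and Ifitm1 at chr7:140967826-140968105 (plus strand).
Ifitm3: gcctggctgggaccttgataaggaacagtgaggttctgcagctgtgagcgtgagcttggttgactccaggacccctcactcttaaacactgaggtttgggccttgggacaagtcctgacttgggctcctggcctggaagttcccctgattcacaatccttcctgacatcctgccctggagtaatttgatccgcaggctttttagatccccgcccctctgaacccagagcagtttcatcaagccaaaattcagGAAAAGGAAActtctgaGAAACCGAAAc
Ifitm2: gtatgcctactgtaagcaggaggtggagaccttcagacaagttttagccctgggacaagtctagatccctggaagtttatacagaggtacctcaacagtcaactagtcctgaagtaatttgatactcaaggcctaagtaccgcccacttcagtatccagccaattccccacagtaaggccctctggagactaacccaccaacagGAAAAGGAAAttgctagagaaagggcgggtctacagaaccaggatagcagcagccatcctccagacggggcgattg
Ifitm1: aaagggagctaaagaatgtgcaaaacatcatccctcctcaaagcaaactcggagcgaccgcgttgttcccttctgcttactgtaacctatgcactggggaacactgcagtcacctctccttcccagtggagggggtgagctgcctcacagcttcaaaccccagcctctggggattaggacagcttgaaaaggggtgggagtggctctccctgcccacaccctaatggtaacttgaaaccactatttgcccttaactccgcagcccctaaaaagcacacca

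Counting the transcript start as base 1, the Ifitm3 window held 2 matches on the gene's strand, GAAAAGGAAA beginning at base 3 and GAAACCGAAA beginning at base 20. The Ifitm2 window held 1 such match, with the same letters GAAAAGGAAA, beginning 46 bases before the start. The windows of Ifitm1, of Ifitm6 and of the 3 starts listed for Ifitm10 held none. Those of Ifitm1 and Ifitm6 lie wholly inside the GENCODE genes given above. The bases around the outer GENCODE starts of these genes were therefore not searched, so the lack of a match holds for the RefSeq starts only. Both strands were searched, and 3.28% of 32851 promoter windows of this length held at least 1 match and 0.210% held 2 or more. By gene, 28 of 58 listed interferon-stimulated genes with a promoter in the table (48.3%) and 3.80% of all 27025 genes had one. TTCNNNGAA, the gamma-interferon activated site, was matched in 7.83% of windows. Of the members it was matched in Ifitm3, beginning at base 14 and overlapping the second response element match, and in Ifitm6, beginning 10 bases before the start. A match is a stretch of letters and not a measured binding site. Over these windows Ifitm2 and Ifitm3 shared 48.8% of aligned positions, against 43.9% to 47.4% for the other pairs among Ifitm1, Ifitm2, Ifitm3 and Ifitm6.

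The coding sequences were more alike. Ifitm2 and Ifitm3 shared 76.3% of aligned bases, Ifitm1 and Ifitm3 64.0%, and Ifitm1 and Ifitm2 60.2%, while Ifitm10 shared 45.5% to 50.4% with the other members. The reads came from the 3′ ends of transcripts, so the last 400 bases of each member were cut into 81-base stretches, the insert length given in the labels. For Ifitm1, Ifitm3, Ifitm6 and Ifitm10, 0 of 320 stretches occurred in a transcript of another gene. For Ifitm2, 44 of 320 stretches (13.8%) also occurred in the processed pseudogenes Gm11951, Gm2840, Gm45308 and Gm8865, so some of its reads could not be placed uniquely. No member shared such a stretch with another member. The predicted gene Gm45717, on the same strand, overlaps 268 of the 655 exonic bases of Ifitm2, near its 5′ end, and reads there could be ambiguous between both genes.

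Ifitm2 and Ifitm3 carried most of the family's RNA. Ifitm2 had 368, 408 and 302 counts in female replicates 1 to 3 and 265, 168 and 230 in male replicates 1 to 3, which came to 296, 276 and 232 CPM in females and 309, 279 and 277 CPM in males. Ifitm3 had 383, 395 and 317 counts in females and 205, 189 and 217 in males, or 308, 268 and 244 CPM and 239, 314 and 261 CPM. For both genes the ranges of the sexes overlapped. The ratio of Ifitm3 to Ifitm2 counts ran from 0.774 in male replicate 1 to 1.125 in male replicate 2.

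Ifitm1 was a minor transcript. Its counts were 37, 56 and 64 for females and 57, 39 and 64 for males, or 29.8, 37.9 and 49.3 CPM in females and 66.4, 64.9 and 77.1 CPM in males. All 3 male libraries lay above all 3 female ones. Ifitm6 was scarcer, with 23, 23 and 17 counts in females and 17, 5 and 10 in males, or 18.5, 15.6 and 13.1 CPM and 19.8, 8.32 and 12.0 CPM. Male replicate 1 was the highest and male replicate 2 the lowest of the 6 libraries for Ifitm6, so the sexes overlapped.

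Ifitm10 had 1 count in all, in male replicate 2, and 0 in the other 5 libraries. A count of 0 allows up to 3 counts, which is 2.03 to 3.61 CPM in those 5 libraries, so that Ifitm10 was not detectable above this limit there, and the 1 count came to 1.66 CPM. Ifitm5 likewise had 1 count, in male replicate 1. Ifitm7, a relative on chromosome 16, had 3, 6 and 3 counts in females and 3, 0 and 3 in males. Of the other relatives in the wider dispanin family, the table listed Tmem91, with a mean of 3.29 CPM over 6 libraries, and Trarg1, with 0.247 CPM, and 0 of these 4 reached the depth needed for a test.

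**Figure D2:**
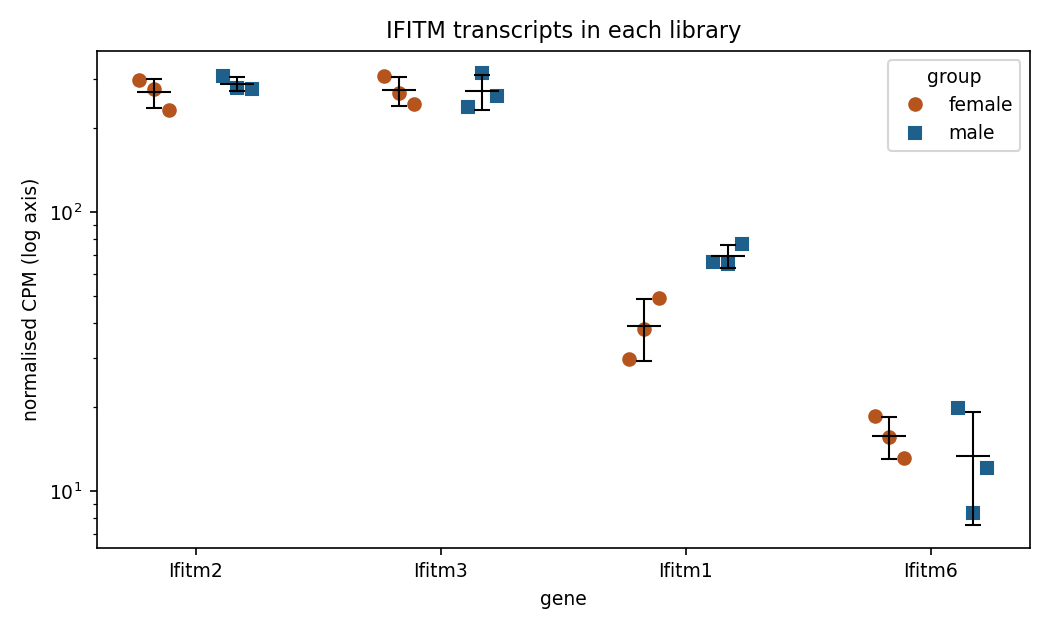
Normalised CPM (log axis) of the 4 tested members in each of 3 female (circles) and 3 male (squares) libraries, with horizontal bars for the mean and whiskers for the SD. Ifitm2 and Ifitm3 sit between 232 and 314 CPM in every library, and only for Ifitm1 do the male points, from 64.9 CPM, lie wholly above the female ones, up to 49.3 CPM.

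To set the genes against each other, levels were divided by the length of the longest annotated transcript. Ifitm2 had 425 ± 39.6 CPM per kb (SD over 6 libraries) and Ifitm3 402 ± 47.3, followed by Ifitm1 with 61.5 ± 20.7, Ifitm6 with 17.9 ± 5.27 and Ifitm10 with 0.0812 ± 0.199. Ifitm2 and Ifitm3 differed by less than their spread, and their order changed between libraries. Ifitm1 lay above Ifitm6 in each of the 6 libraries. Without division by length the order was the same, with 278, 272, 54.2, 14.6 and 0.277 CPM. Among the 8460 tested genes, the level per kb placed Ifitm2 at rank 212 and Ifitm3 at rank 223, Ifitm1 at rank 1253 and Ifitm6 at rank 3443. By CPM without the division these ranks were lower, at 539 and 557, 3550 and 7485. Reads from 3′ ends do not grow in number with transcript length, so the division is a convention here.

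As a family the 5 genes summed to 653, 597 and 539 CPM for females and to 634, 669 and 628 CPM for males, with means of 596 ± 57.2 (SD, n = 3) and 643 ± 22. The sexes overlapped, because female replicate 1 lay above 2 of the male libraries. The difference in the log2 of the mean sums was 0.11, against a spread within a sex of 0.10, and it ranged from 0.01 to 0.18 over the other scalings, filters and sets of libraries. IFITM counts were 0.0606% ± 0.00661 of all counts in females and 0.0611% ± 0.00333 in males.

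Within the family, Ifitm1 held a larger share in males. Its share of IFITM counts was 4.56% (exact 95% binomial interval 3.23% to 6.23%), 6.35% (4.83% to 8.17%) and 9.14% (7.11% to 11.5%) in female replicates 1 to 3. In male replicates 1 to 3 it was 10.5% (8.03% to 13.4%), 9.70% (6.99% to 13%) and 12.3% (9.59% to 15.4%). The 3 male shares lay above the 3 female shares, but the interval of female replicate 3 overlapped those of all 3 male libraries. The interval of female replicate 2 overlapped those of male replicates 1 and 2. Per 100 counts of Ifitm2 and Ifitm3 together there were 4.93, 6.97 and 10.3 of Ifitm1 in females and 12.1, 10.9 and 14.3 in males, a ratio that needs no scaling of libraries. Ifitm2 held 41.8% to 48.7% of the family's counts over the 6 libraries and Ifitm3 37.7% to 47.2%. Intervals cover counting error only, and the removal of PCR copies was not given in the sources used here.

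**Figure D3:**
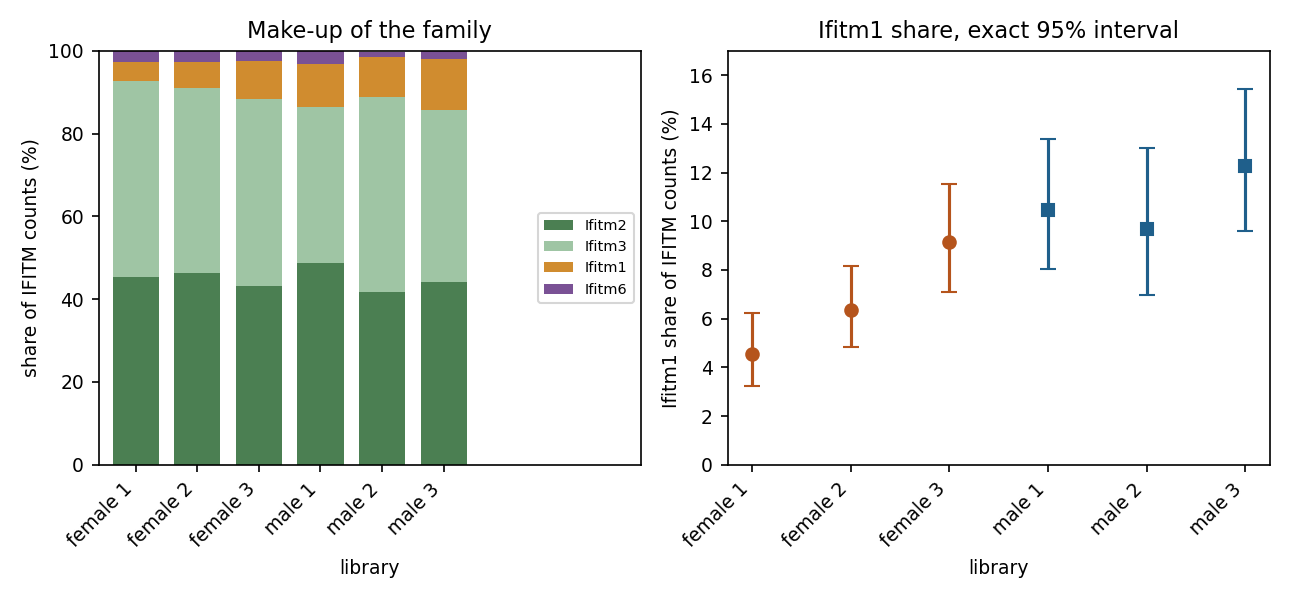
Left, the percent of IFITM counts held by Ifitm2, Ifitm3, Ifitm1 and Ifitm6, stacked, in each library (Ifitm10 is not drawn). Right, the percent held by Ifitm1 with exact 95% binomial intervals, females as circles and males as squares; the female libraries run from 4.56% to 9.14% and the male ones from 9.70% to 12.3%.

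The sex of the mice is the only contrast in the labels. Ifitm1 had 39.0 ± 9.77 CPM (SD, n = 3) in females and 69.5 ± 6.68 in males, a fitted log2 fold change, male minus female, of 0.84 ± 0.19 (SE). From the summed counts, 157 in females and 160 in males, the male to female ratio was 1.79, with a 95% counting interval of 1.43 to 2.24. Such an interval pools the libraries of a sex and leaves out the spread between them, so it is too narrow for a difference between the sexes. The other 3 differences were smaller than their standard errors. Ifitm2 had 268 ± 32.7 and 288 ± 17.6 CPM and a log2 fold change of 0.11 ± 0.13. Ifitm3 had 273 ± 32.6 and 272 ± 38.8 CPM and a log2 fold change of -0.02 ± 0.13. Ifitm6 had 15.7 ± 2.72 and 13.4 ± 5.86 CPM and a log2 fold change of -0.17 ± 0.33, with a counting interval of the ratio from 0.563 to 1.38.

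In the fit over all genes (quasi-likelihood test of edgeR, Benjamini-Hochberg adjusted p under 0.05), 1 of the 4 tested members, Ifitm1, was called higher in males. Over all 8460 tested genes, 0.426% were called higher in males and 0.579% in either direction. All male libraries lay above all female ones in 7.57% of tested genes. The members were chosen with this contrast known, so nothing is read from the count of 1 against that background. The Ifitm1 difference stayed between 0.68 and 1.03 on the log2 scale under 14 alternatives. It was no longer called without female replicate 1 (0.68), without female replicate 2 (0.81), without male replicate 2 (0.87) or without male replicate 3 (0.75), or when libraries were scaled by their totals only (0.75). Ifitm3 changed sign when female replicate 1 (0.08), male replicate 1 (0.07) or male replicate 3 (0.01) was left out, and Ifitm6 without male replicate 2 (0.03).

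**Figure D4:**
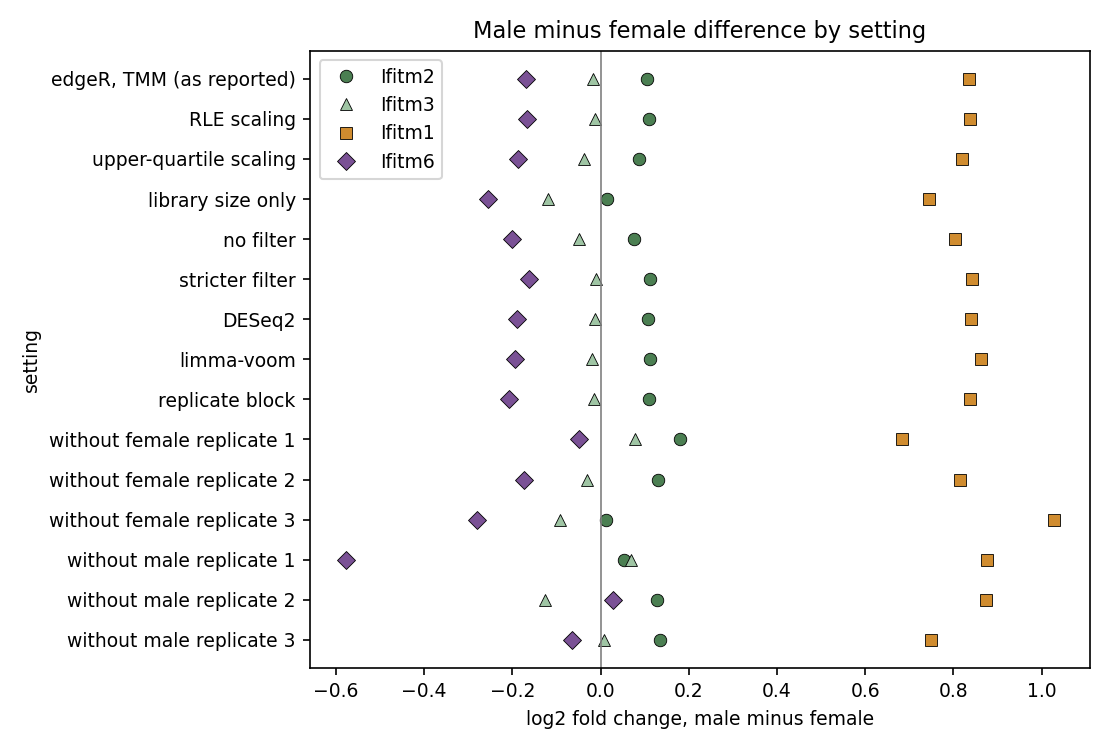
Log2 fold change, male minus female, of 4 IFITM genes (horizontal axis) under each setting (vertical axis). The Ifitm1 squares lie between 0.68 and 1.03 in every setting drawn, while the other 3 genes lie between -0.58 and 0.18.

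The spread within a sex was set against what counting error alone would give. The coefficient of variation of Ifitm2 was 12.2% in females, where counting error alone gives 5.28%, and 6.09% in males, where it gives 6.73%. For Ifitm3 it was 11.9% in females and 14.3% in males, with counting errors of 5.23% and 7.01%. Ifitm1 varied by 25.1% in females (counting error 13.8%) and by 9.62% in males (13.7%). For Ifitm6, 17.3% in females was below its counting error of 21.8%, and 43.8% in males compared with 30.6%.

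The levels of some cell type markers also differed between the sexes, and in bulk samples fewer cells of a type and less RNA per cell cannot be told apart. Of 8 markers of mast cells and basophils, 6 were in the table and 4 were tested. All 4 had every male library above every female one, which held for 7.57% of all tested genes. Among those too low for a test, the sexes overlapped for Ms4a2 (2.64 CPM in females and 6.14 in males). They also overlapped for Fcer1a, with a lower mean in males (2.84 and 0.956 CPM). The 6 in the table summed to 91.8 to 114 CPM in females and 148 to 208 in males, led by the proteases Mcpt8 and Prss34. Cpa3, a protease of mast cells and basophils, was called (log2 fold change 1.44). Erythroid markers, led by the carbonic anhydrases Car1 and Car2, summed to 94.2 to 112 CPM in females and 219 to 364 in males. Car1 and Car2 were both called, with log2 fold changes of 1.67 and 1.52. Megakaryocyte and platelet markers, led by Pf4, which was called (1.92), and Itga2b, summed to 26.4 to 35.4 and 47.8 to 116 CPM. Of the 6 in the table, only Pf4 was tested, and it was the largest part of the sum in every library. Among those too low for a test, the sexes overlapped for Itga2b, Ppbp, Gp1bb and Gp9, and males lay above females for Vwf. Over all tested genes 0.426% were called higher in males. Endothelial and stromal markers, led by Pecam1 and Sparc, summed to 135 to 169 CPM in females and to 178, 336 and 184 in male replicates 1 to 3. Of 4 tested, 0 were called and all overlapped between the sexes, but all 4 fold changes lay above 0. At an unadjusted p under 0.05 there were 3 of the 4 by edgeR and 2 each by DESeq2 and limma-voom. Over all tested genes these shares were 11.3%, 5.9% and 11%. Among those too low for a test, males lay above females for Cxcl12 and below for Cdh5. Markers of T and NK cells summed to 129 to 149 and 154 to 170 CPM. Nearly all of this was Nkg7 (134 and 161 CPM), the only one tested. Next came Cd3g, with a lower mean in males (1.32 and 0.388 CPM), so this sum mainly reads 1 gene.

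The sums of 4 other lists were higher in every female library than in every male one. B cell markers, led by Cd79b and Ms4a1, summed to 94.2 to 98.9 CPM in females and 64.9 to 75.9 in males, and Ms4a1, the surface protein CD20, was called lower in males (log2 fold change -2.36 ± 0.48). Plasma cell markers, led by Jchain and Igha, summed to 1221 to 1330.4 and 963 to 1187 CPM, and Igha, the constant region of immunoglobulin A, was called lower in males (-0.97 ± 0.15). Over all tested genes 0.154% were called lower in males. Immature myeloid markers summed to 14708 to 15424.5 CPM in females and 13171.5 to 14189 in males, and monocyte markers, led by F13a1 and Irf8, to 3738 to 3904 and 3414 to 3717 CPM, with 0 of 7 and 0 of 8 tested genes called. Of the immature myeloid fold changes 3 lay above 0 and 4 below, and of the monocyte ones 2 above and 6 below. Mpo, the largest part of the immature myeloid sum, had means of 7639 CPM in females and 6332 in males. Ctsg went the other way, with 1613 and 1824 CPM. The sums overlapped between the sexes for mature neutrophils (led by Lcn2 and Mmp8), macrophages (Cd68 and Adgre1) and dendritic cells (Bst2 and Tcf4). The part of any of these cells in the Ifitm1 difference was not tested. Stem and multipotent progenitor markers, led by Cd34 and the receptor gene Flt3, overlapped between the sexes, with 588 to 652 and 640 to 690.2 CPM, and 0 of 8 tested were called. At an unadjusted p under 0.05 there were 2 of the 8 by edgeR, 2 by limma-voom and 0 by DESeq2, where the shares over all tested genes were 11.3%, 11% and 5.9%. For immature myeloid markers these counts were 0, 1 and 2 of 7, and for monocyte markers 1, 1 and 0 of 8.

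The 6 libraries were pooled before sequencing with 10 lung samples not analysed here, so markers of lung were read as well. Lung epithelial markers, led by Sftpc and Scgb1a1, secreted products of that tissue, were counted in every library. All 6 listed were in the table, and they summed to 151 to 209 CPM in females and 228 to 462 in males. Of the 6, 5 were tested and 0 were called. Before adjustment 3 of the 5 had a p under 0.05 by edgeR and 2 each by limma-voom and DESeq2. Over all tested genes these shares were 11.3%, 11% and 5.9%. All 5 fold changes lay above 0, with a median of 0.60 on the log2 scale. Sftpc and Sftpb had every male library above every female one, which held for 7.57% of all tested genes. The sexes overlapped for the other listed genes. The part of lung RNA in the Ifitm1 difference was not tested.

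Genes of the interferon pathway were then read from the same fit, from lists of its parts. Of 74 listed interferon-stimulated genes, 72 were in the table and 35 were tested, and edgeR's quasi-likelihood test called 0 of the 35. At an unadjusted p under 0.05 it also called 0, as did DESeq2 and limma-voom, against 11.3%, 5.9% and 11% of all tested genes. Of the 35 fold changes, 11 lay above 0 and 24 below, with a median of -0.05 on the log2 scale, where the median of all tested genes was -0.0030. Scaled by library totals only, these medians were -0.14 and -0.09. Psmb8, a subunit of the immunoproteasome, had the highest level, with 523 CPM in females and 549 in males. Lgals9, a galectin, had 170 and 201 CPM, and Bst2, the virus-tethering protein tetherin, 173 and 188 CPM.

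Several of the genes that interferon raises most were barely counted, in contrast with Ifitm2 and Ifitm3. Isg15, a ubiquitin-like modifier, had 29 counts in the 6 libraries together, Ifit1, a sensor of foreign RNA, had 12, and Mx1, a dynamin-like antiviral protein, had 39. Ifit3, Oasl2 and Rsad2 were also low, and the 6 genes, which were picked after their values were seen, had mean levels of 0.265 to 5.9 CPM per kb, against 425 for Ifitm2 and 402 for Ifitm3. Of 19 listed interferon genes the table listed 0, and every gene it lists has at least 1 count.

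Upstream in the pathway, 0 genes were called in any of the remaining pathway lists by edgeR's quasi-likelihood test. All 5 receptor genes in the table were tested. Ifngr1 and Ifngr2, the chains of the receptor for gamma interferon, had log2 fold changes of -0.26 ± 0.14 and 0.11 ± 0.14. Ifnar2, a chain of the receptor for type I interferon, stood at 130 ± 6.28 CPM for females and 98.7 ± 10.8 for males (SD, n = 3), a log2 fold change of -0.39 ± 0.13 with a Benjamini-Hochberg adjusted p = 0.246. Its female libraries lay wholly above the male ones, which held for 8.03% of tested genes, and Ifnar1, the other chain of this receptor, also had its female libraries above the male ones (39.9 ± 1.04 and 35.9 ± 1.88 CPM, log2 fold change -0.15 ± 0.20). At an unadjusted p under 0.05 there was 1 of the 5 receptor genes by edgeR, by DESeq2 and by limma-voom, where the shares of all tested genes were 11.3%, 5.9% and 11%. All 7 signal transducers were tested, among them Jak1 and Stat3 with log2 fold changes of 0.12 and -0.08. Of 8 IRF genes 5 were tested, with Irf8, a factor of monocyte and dendritic cell fate, at 1114 CPM in females and 1066 in males and Irf3 and Irf2 at 72.3 and 70.1 and at 60.5 and 59.0 CPM. Irf7, which amplifies the interferon response, was too low for a test, with 6.24 and 5.13 CPM. Of 9 inhibitors of the signal 6 were tested, with Ptpn6, Irf2bp2 and Ptpn1 at log2 fold changes of -0.02, -0.26 and -0.16. In the transducers, IRF genes and inhibitors 0 of the tested genes had an unadjusted p under 0.05 by edgeR, DESeq2 or limma-voom, against the same shares of all tested genes.

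**Figure D5:**
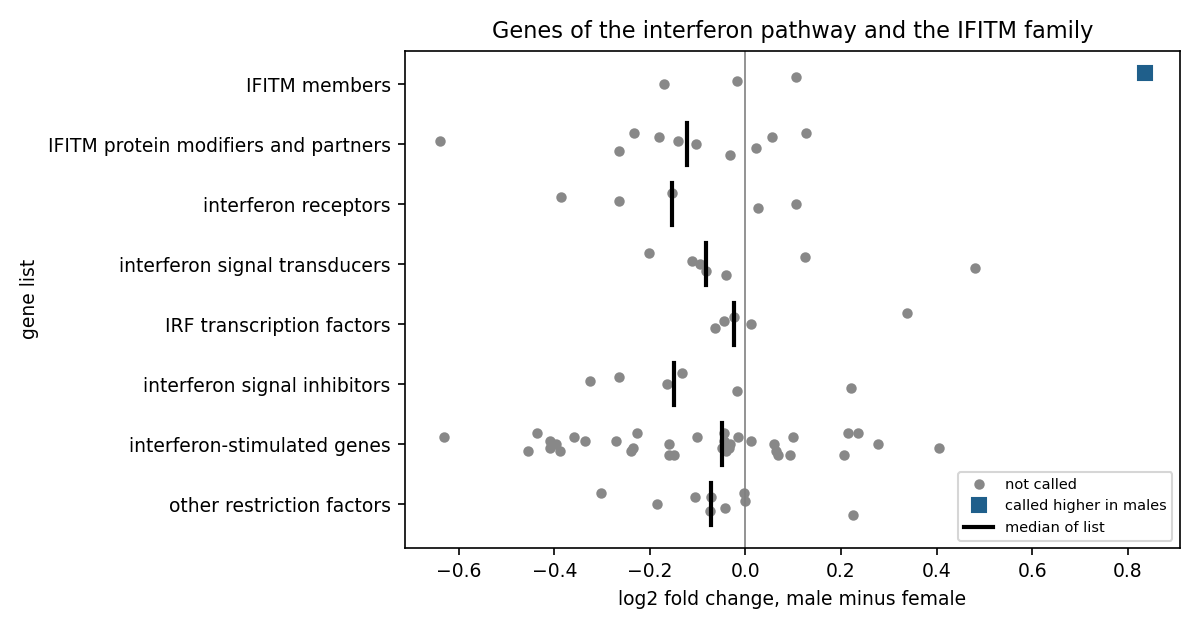
Log2 fold change, male minus female, of each tested gene (points, horizontal axis) by gene list (vertical axis), with vertical bars for the median of each list other than the family itself. The blue square is Ifitm1, at 0.84, and the interferon-stimulated genes spread from -0.63 to 0.41 around a median of -0.05.

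Proteins that modify or bind IFITM proteins were tested in 10 of 12 cases, and 0 were called. Vcp, an ATPase that extracts ubiquitinated proteins, had 444 CPM in females and 377 in males, Vapa, a membrane contact protein that binds Ifitm3, 290.3 and 284, and Nedd4, a ubiquitin ligase that acts on Ifitm3, 163 and 165. Zdhhc20, a palmitoyltransferase, had 77.4 and 68.3 CPM. Fyn, a kinase known to phosphorylate Ifitm3, stood at 32.0 CPM in females and 20.9 in males (log2 fold change -0.64 ± 0.25). At an unadjusted p under 0.05 there was 1 of the 10 by edgeR and by limma-voom and 0 by DESeq2, near the 11.3% and 11% of all tested genes by the former tools. Cd81, a tetraspanin that forms a surface complex with Ifitm1 on lymphocytes, had 88.6 and 97.8 CPM, a log2 fold change of 0.13 ± 0.15. Zdhhc20, Fyn and Cd81, like Irf7, Ifnar1 and Cpa3 above, were named after their values were seen.

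Other restriction factors were read as a further list. Of 12 listed, 10 were in the table and 9 were tested, and 0 were called by edgeR or had an unadjusted p under 0.05 by edgeR, DESeq2 or limma-voom, which 11.3%, 5.9% and 11% of all tested genes had. Ly6e, a surface protein that limits coronavirus entry, had 2390 ± 51.5 CPM in females and 2274 ± 92.9 in males. Serinc3, a membrane protein that reduces the infectivity of retroviruses, had 1771 and 1682 CPM, and Apobec3, a deaminase of retroviral DNA, 297 and 296.

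Some genes followed the members across the 6 libraries more closely than other members did. Among 6540 candidate genes with a mean of at least 20 CPM, the 3 with the highest Pearson correlation of log2 CPM were Mcm5 (0.99), Llph (0.97) and Mier3 (0.96) for Ifitm1, Ergic1, Aopep and Wdr45b for Ifitm2 (each 0.98), Pxmp4, Api5 and Cdc42 for Ifitm3 (0.97 to 0.999), and Vdac2, Taok2 and Zbtb38 for Ifitm6 (0.99 each). With 6 points and so many candidates, values this high describe these libraries only. Between the members themselves the correlations ran from -0.47 for Ifitm1 and Ifitm6 to 0.42 for Ifitm2 and Ifitm6, with 0.26 for Ifitm2 and Ifitm3. The libraries share a pool and the 2 sexes, and differ in depth.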

How the data were processed

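RNA was counted in 6 libraries, 3 female and 3 male, grouped by the sex in the titles. Per the labels' protocols, libraries were made by BRB-seq, in which oligo-dT primers carry a sample barcode and a molecular identifier, so reads come from 3′ ends. The authors deposited raw counts per gene, with no normalisation. Per the submitters' processing notes, the tools included DESeq2, featureCounts 2.0.1, HISAT2 2.2.1, Trim Galore 0.6.7 and UMI-tools, and the builds were GRCm38 and GRCh38, with no role given. Use of strand and removal of PCR copies are not given in the sources used here.

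All 21606 identifiers matched GENCODE M21. filterByExpr (minimum count 10, minimum total 15) kept 8460 genes. Male minus female was tested with edgeR 4.0.16 in R 4.3.3 (TMM, quasi-likelihood F test, Benjamini-Hochberg at 0.05 over all tested genes). CPM are per 1000000 of the tested genes' counts times the TMM factor, and log2 CPM used a pseudocount of 1 CPM for correlations. As alternatives, libraries were scaled by their size only, by upper quartile or by RLE, and other filters were set, with DESeq2 1.42.0, limma-voom 3.58.1, a replicate block, each library left out in turn, and levels by plain totals and per kb. Libraries of the same sex differed by more than sampling noise (chi-square per degree of freedom 2.05 to 4.31). The fit was tested on simulated data. Sequences were aligned globally with Biopython 1.88.

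Members and lists were chosen with earlier results of these data known. Named are all members and relatives with counts, from each pathway list the genes called or else the 3 highest in mean CPM, from each cell type list the 2 highest markers, the 3 genes most alike each member, and tested neighbours. A gene that this rule names among the signal transducers is not reported here.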

Additional observations from a re-analysis of the deposited data

How the results depend on the processing

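The count of genes called, 49 with 36 higher in males and 13 higher in females, was 116 (81 and 35) with no filter and 78 (56 and 22) with the replicate block. It was 18 (17 and 1) by DESeq2, which gave no adjusted p to 7873 of the 8460 genes. By limma-voom 8 genes were higher in females, and with library-size scaling 29 were higher in males and 23 in females. Leaving out 1 library gave 23 (without male replicate 3) to 415 (without male replicate 1) genes, 19 to 337 higher in males and 4 to 78 higher in females. The count of IFITM members called was 1, was 0 with library-size scaling, and lay between 0 and 1 without single libraries. DESeq2 gave no adjusted p to Ifitm1 or Ifitm6, so no count of members is given for it, and its log2 fold change of Ifitm1 was 0.84. The count of interferon-stimulated genes called was 0 in every setting run, although DESeq2 gave no adjusted p to 34 of the 35. The causes were not tested. Replicate numbers are shared between the sexes only as numbers: same-numbered libraries had correlations of deviations of 0.026, 0.029 and 0.044, although each correlated best with its own number. Under this block Ifitm1 had a log2 fold change of 0.84 and was called, as without it. CPM by plain library totals gave Ifitm1 means of 39.5 in females and 66 in males. With 95 counts in all, Ifitm6 is limited by depth.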

Other observations

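The nearest tested protein-coding genes outside the IFITM cluster were Pgghg, an enzyme of collagen glucose removal 1.29 kb from its lower end, and Pkp3, a desmosomal plaque protein 60.3 kb from its upper end. Pgghg had 12.5 ± 3.05 CPM (SD, n = 3) in females and 18.2 ± 3.60 in males, a log2 fold change of 0.52 ± 0.31. Pkp3 had 10.2 ± 1.55 and 5.81 ± 4.05 CPM, a log2 fold change of -0.73 ± 0.44. In both the sexes overlapped and neither was called by the edgeR fit (adjusted p = 0.556 and 0.567, Benjamini-Hochberg).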
